A study of Arabidopsis thaliana with 36 samples.

Results

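Source leaves of Arabidopsis thaliana plants labelled as a triple mutant of S1 group basic leucine zipper (bZIP) transcription factors were compared with source leaves of wild type, ecotype Col-0, across all genes of the count table deposited for this genotype and tissue. The comparison uses 6 of the 36 libraries of the series, 3 biological replicates of the triple mutant and 3 of wild type. The remaining libraries come from sink leaves, rosette buds and flowers of both genotypes and from the same tissues of plants labelled quintuple mutant. All plants were labelled untreated and stood on soil in days of 16 h light and 8 h dark, and tissue was taken when the main inflorescence started to flower. The labels name neither the mutated genes nor the alleles, the number of mutant lines or the number of plants in a sample, so the groups are described as the libraries labelled triple mutant and wild type.

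Source leaves are mature leaves that fix more carbon than they use and export the surplus as sucrose, and sink leaves are young leaves that import it. In Arabidopsis, sucrose leaves the mesophyll through the exporters SWEET11 and SWEET12 and is loaded into the phloem by the carrier SUC2. The S1 group bZIP proteins (bZIP1, bZIP2, bZIP11, bZIP44 and bZIP53) pair with C group bZIP proteins, act in the response to low sugar and low energy, and are known to bind ACGT motifs and the ACTCAT motif in front of amino acid metabolism genes such as ASN1 and PRODH1.

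The triple mutant libraries held 18313059, 20847891 and 22464922 counts, and the wild-type libraries held 25124369, 20857619 and 22251007. Leaf genes were abundant in both groups. RBCS1A, a small subunit of Rubisco, stood at 11484 to 17481 CPM (counts scaled to a common library size over the 6 libraries) in the triple mutant and at 12463 to 15648 CPM in wild type. The summed level of 6 floral organ markers was 0.407 to 1.03 CPM in the triple mutant and 0.580 to 1.15 CPM in wild type, with LFY at 0 in all libraries, and 5 bud markers summed to at most 0.285 CPM in the triple mutant and 0.570 CPM in wild type, with HB40 at 0. The 6 markers of dividing cells summed to 22.7 to 29.6 CPM in the triple mutant and 17.3 to 20.6 CPM in wild type, and 1 of them, the replication helicase gene MCM2, rose (log2 fold 0.81 ± 0.19, SE, adjusted p = 0.0232), but not without triple mutant replicate 2 or any 1 of the wild-type libraries (adjusted p = 0.0518 to 0.0966). The part of dividing cells in the results was not tested, and in these bulk samples fewer cells of a type and less RNA per cell cannot be told apart. None of 4 phloem, 4 xylem and 3 guard cell markers passed the test. The xylem markers summed to 24.4, 13.8 and 14.6 CPM in the triple mutant and 25.4, 26.1 and 23.9 CPM in wild type. The phloem markers summed to 468, 357 and 383 CPM in the triple mutant and 508, 498 and 518 CPM in wild type. With triple mutant replicate 1 left out, 3 xylem markers (IRX3, XCP1 and IRX1) and the phloem marker SUC2 were lower (adjusted p = 0.00595 to 0.0117). XCP1 was also lower with DESeq2, no filter on low counts or organelle genes left out (adjusted p = 0.0269 to 0.0494). The part of these tissues in the results was not tested. Triple mutant replicate 1 stood apart from the others of its group, with a Pearson correlation across genes (log2 CPM + 0.5) of 0.982 and 0.979 to replicates 2 and 3, against 0.991 between those, and of 0.987 to 0.989 between wild-type replicates.

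Chloroplast-encoded loci took 2.2, 1.26 and 0.974% of all counts in the triple mutant libraries and 0.288, 0.160 and 0.539% in the wild-type libraries. In the triple mutant nearly all of this came from 4 loci, ATCG00950, ATCG01180, ATCG01210 and ATCG00920, each with all triple mutant libraries higher than all wild-type libraries. ATCG00950, for example, held 7717, 3826 and 2766 CPM in the triple mutant and 769.8, 450.4 and 1515 CPM in wild type (log2 fold 2.39, adjusted p = 0.0142). ATCG01180 held nearly the same, 7670, 3821 and 2764 CPM in the triple mutant and 778, 456 and 1516 CPM in wild type. ATCG01210 and ATCG00920 also stood close to each other, for example at 4259 and 4227 CPM in triple mutant replicate 1. The loci of each pair may count the same reads, and whether the 4 loci are separate RNAs was not tested. The other chloroplast-encoded loci together held 577, 377 and 403 CPM in the triple mutant and 433, 382 and 829.6 CPM in wild type, so these sums overlapped. Of 78 tested chloroplast-encoded loci 5 rose, these 4 among them, and 3 fell, against 8.86% and 7.51% of all tested genes. Their median log2 fold was -0.32, with 24 above 0 and 54 below. The falls numbered 8 without triple mutant replicate 1, 0 without triple mutant replicate 2 or 3 and 5 without wild-type replicate 2. Without wild-type replicate 1 the rises numbered 1. With all organelle genes left out, 3098 nuclear genes passed the test, against 3076 genes with them.

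The 5 S1 bZIP genes were all transcribed in both groups, and none passed the test. With 1 library left out, between 0 and 1 of them fell, depending on the library, and 0 rose. bZIP2 held 55.5, 60.6 and 68.2 CPM in the triple mutant and 99.3, 75.4 and 71.6 CPM in wild type (log2 fold -0.42 ± 0.15, SE, adjusted p = 0.0847), with all triple mutant libraries below all wild-type libraries. bZIP1 held 2.37, 3.57 and 5.42 CPM in the triple mutant and 5.97, 7.15 and 5.09 CPM in wild type (log2 fold -0.66 ± 0.28, adjusted p = 0.14). bZIP11 held 6.81, 9.02 and 8.43 CPM in the triple mutant and 7.94, 6.37 and 6.56 CPM in wild type (log2 fold 0.22 ± 0.17, adjusted p = 0.406), and in both bZIP1 and bZIP11 the groups overlapped. The log2 folds of bZIP44 and bZIP53 were 0.03 ± 0.31 and 0.01 ± 0.18 (adjusted p = 0.958 and 0.979). Counts per locus do not show whether a transcript carries an insertion or an edit, so these levels do not check which genes are mutated. Of the 4 C group genes, the dimer partners, 2 were lower. bZIP63, a target of the energy sensor kinase SnRK1, stood at 18.8, 11.0 and 10.8 CPM in the triple mutant and 19.3, 29.6 and 25.5 CPM in wild type (log2 fold -0.88 ± 0.23, adjusted p = 0.0332), and bZIP10 fell by less (log2 fold -0.47 ± 0.10, adjusted p = 0.0171). Without triple mutant replicate 2 or wild-type replicate 3, 0 of these 4 passed, and 1 passed without any of triple mutant replicate 3 and wild-type replicates 1 and 2.

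Across all genes, 3076 of 18795 tested genes differed between triple mutant and wild-type source leaves (16.4%, adjusted p under 0.05, edgeR quasi-likelihood test). Of these 1665 were higher in the triple mutant (8.86%) and 1411 were lower (7.51%), and 486 were at least 2-fold higher (2.59%) and 296 at least 2-fold lower (1.57%). Counts of called members in the gene lists are to be read against the shares of 8.86% higher and 7.51% lower. In 3061 of the 3076 the libraries of the groups did not overlap, while 36.6% of all tested genes showed no overlap. The number of calls rested on single libraries. It was 766 without triple mutant replicate 2, 1365 without wild-type replicate 1, 1547 without wild-type replicate 2 and 1732 without wild-type replicate 3, and it was 4022 without triple mutant replicate 1, the library that stood apart. Of the 112 genes that passed and were chosen by the naming rule, 53 lost their call without triple mutant replicate 2, 41 without wild-type replicate 1, 38 without wild-type replicate 3, 28 without wild-type replicate 2, 14 without triple mutant replicate 3 and 7 without triple mutant replicate 1, and none changed direction in these fits. In the model of all 9 source leaf libraries 85 of the 112 lost their call. Another 18 genes that passed are described here but were chosen after their values were seen. Of these 14 lost their call without triple mutant replicate 2 or wild-type replicate 1, 11 without wild-type replicate 2 or 3, 10 without triple mutant replicate 3 and 5 without triple mutant replicate 1, again with no change of direction. The labels name the replicates biological without saying how they were grown, so p values measure the spread between these samples.

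**Figure D1:**
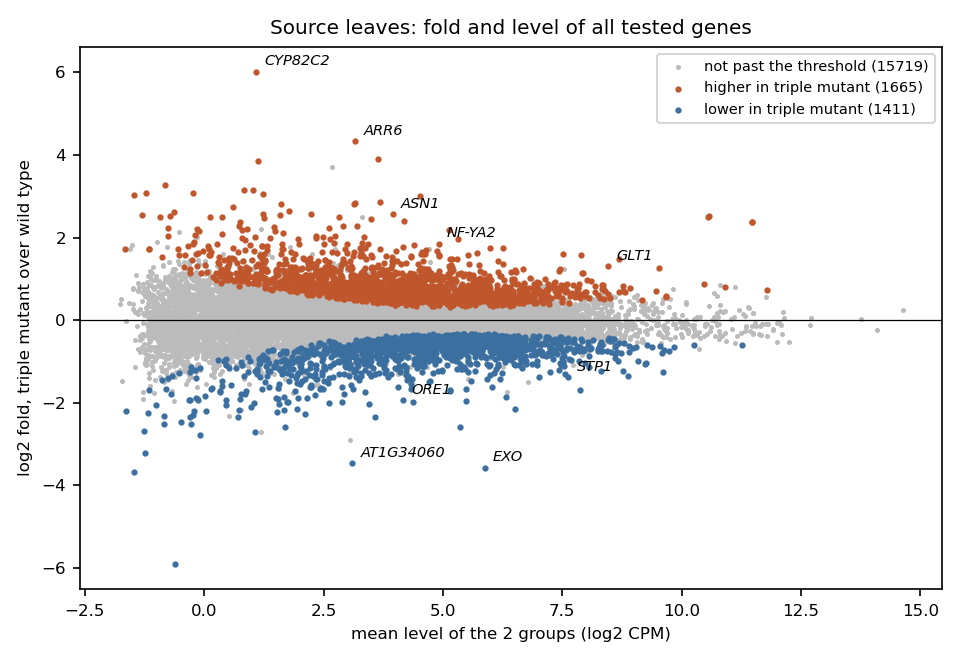
Log2 fold of triple mutant over wild-type source leaves (vertical axis) against the mean level of both groups in log2 CPM (horizontal axis), with 1 point per tested gene. The 1665 genes higher and the 1411 genes lower in the triple mutant lie on both sides of a median of all genes at -0.01, and ARR6 and EXO are among the farthest from 0.

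Cytokinin response genes were among the largest rises. Cytokinin acts through histidine kinase receptors and type B response regulators, which switch on the genes of type A response regulators, and these in turn dampen the signal. Of the 12 genes of the cytokinin list 11 were tested, of which 6 rose and 0 fell (median log2 fold 0.82, against -0.01 for all genes), and 5 of these are among the 8 type A response regulator genes tested. ARR6 held 22.7, 21.7 and 6.76 CPM in the triple mutant and 1.06, 0.887 and 0.535 CPM in wild type. ARR7 held 31.1, 39.4 and 20.9 CPM in the triple mutant and 8.55, 5.27 and 3.3 CPM in wild type, and ARR15 held 4.80, 5.03 and 2.85 CPM in the triple mutant and 0.950, 0.313 and 0.178 CPM in wild type. In each of these 3 genes the groups were apart, and triple mutant replicate 3 was the lowest library of its group. The log2 folds were 4.34 ± 0.50 for ARR6, 3.05 ± 0.48 for ARR15, 2.4 ± 0.33 for ARR7 and 2.04 ± 0.24 for ARR5 (SE, adjusted p = 0.00285, 0.00594, 0.00412 and 0.003). ARR5 held 8.69, 9.66 and 6.15 CPM in the triple mutant and 2.43, 1.62 and 1.83 CPM in wild type, again without overlap. ARR8 rose by less (log2 fold 0.88 ± 0.16, adjusted p = 0.00948). IPT3, which encodes an enzyme that makes cytokinin, rose as well (log2 fold 0.82 ± 0.13, adjusted p = 0.00672), with 20.1, 25.7 and 20.8 CPM in the triple mutant and 12.1, 13.7 and 12 CPM in wild type. ARR4, ARR9 and ARR16 had log2 folds of 0.65, 0.51 and 0.36 and did not pass, although ARR4 did with DESeq2 (adjusted p = 0.0253). The calls of ARR5, ARR6, ARR7, ARR8, ARR15 and IPT3 each held without any 1 library. In the model of all 9 source leaf libraries ARR5 and ARR6 kept their calls. ARR7, ARR8, ARR15 and IPT3 lost theirs in that model (adjusted p = 0.0949, 0.0532, 0.123 and 0.209). CRF2, a cytokinin response factor of the AP2/ERF family and no member of the list, was among the 15 largest rises, with 20.6, 20.6 and 6.11 CPM in the triple mutant and 2.09, 1.67 and 2.77 CPM in wild type (log2 fold 2.84 ± 0.44, adjusted p = 0.00567). Its call held without any 1 library but not in the model of all 9 source leaf libraries (adjusted p = 0.0538). ARR6 overlaps AT5G62910 on the opposite strand over 348 bases, and that locus did not pass (log2 fold 0.14).

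The 250 bases before the annotated starts of ARR5, ARR6, ARR7 and ARR15 were read from the RefSeq assembly TAIR10.1 (minus strand at all 4, chr3:17760951-17761200 for ARR5, chr5:25254319-25254568 for ARR6, chr1:6579315-6579564 for ARR7 and chr1:28133026-28133275 for ARR15), and the window of ASN1, a known S1 bZIP target (chr3:17441432-17441681, minus strand), was read beside them because these genes rose and their regulators are known. In the 4 ARR sequences capitals mark the core of the type B response regulator site, AGATT or its reverse complement AATCT, and in ASN1 they mark the G-box CACGTG. The 5 sequences are
ARR5: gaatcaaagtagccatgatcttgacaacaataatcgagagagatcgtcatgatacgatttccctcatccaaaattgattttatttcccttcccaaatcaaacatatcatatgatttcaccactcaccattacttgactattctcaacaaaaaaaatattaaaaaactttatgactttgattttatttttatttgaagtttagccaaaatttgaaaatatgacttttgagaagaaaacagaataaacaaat
ARR6: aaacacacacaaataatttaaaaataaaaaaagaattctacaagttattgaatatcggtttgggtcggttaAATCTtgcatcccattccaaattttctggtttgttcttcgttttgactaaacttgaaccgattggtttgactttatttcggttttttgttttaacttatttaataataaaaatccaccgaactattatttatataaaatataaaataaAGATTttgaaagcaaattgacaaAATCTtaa
ARR7: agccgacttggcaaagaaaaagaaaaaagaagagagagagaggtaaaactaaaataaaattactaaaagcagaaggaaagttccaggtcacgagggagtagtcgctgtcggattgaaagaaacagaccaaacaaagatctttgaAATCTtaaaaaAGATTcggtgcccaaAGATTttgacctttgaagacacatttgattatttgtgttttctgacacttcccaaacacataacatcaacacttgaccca
ARR15: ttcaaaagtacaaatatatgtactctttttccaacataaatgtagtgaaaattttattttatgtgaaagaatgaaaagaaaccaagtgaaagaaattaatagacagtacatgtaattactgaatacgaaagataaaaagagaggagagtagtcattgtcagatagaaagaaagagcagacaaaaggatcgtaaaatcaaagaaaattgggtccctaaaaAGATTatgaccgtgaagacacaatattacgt
ASN1: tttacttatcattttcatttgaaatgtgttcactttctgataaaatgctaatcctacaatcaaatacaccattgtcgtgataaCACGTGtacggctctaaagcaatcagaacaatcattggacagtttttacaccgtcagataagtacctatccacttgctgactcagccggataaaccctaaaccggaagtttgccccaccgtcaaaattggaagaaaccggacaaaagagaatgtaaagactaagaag

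The core was found 3 times in the window of ARR6, 3 times in that of ARR7, 1 time in that of ARR15 and 0 times in that of ARR5. For the bZIP motifs the windows of EXO, ORE1 and NF-YA2 were searched as well as that of ASN1. The ASN1 window held 1 G-box, whose center is its 1 ACGT core, the NF-YA2 window held 1 ACGT core and no G-box, and the windows of EXO and ORE1 held neither. The ACTCAT motif, its reverse complement and the C-box were absent from these 4 windows. Among all 18596 windows of tested genes 62.6% held the type B response regulator core, against 61.9% of the windows of genes that rose and 60.3% of those that fell. The G-box stood in 7.32% of all windows, in 4.70% of those of rising genes and in 8.20% of those of falling genes. The ACTCAT motif or its reverse complement ATGAGT stood in 11.8% of all windows, 11.9% of rising and 12.3% of falling genes. The ACGT core, which every G-box CACGTG and every C-box GACGTC contains, stood in 44.1% of all windows, 40.1% of rising and 48.1% of falling genes. The C-box stood in 2.5% of all windows, 2.96% of rising and 2.78% of falling genes. Both strands were searched, and a match is a string of letters, not a bound site.

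**Figure D2:**
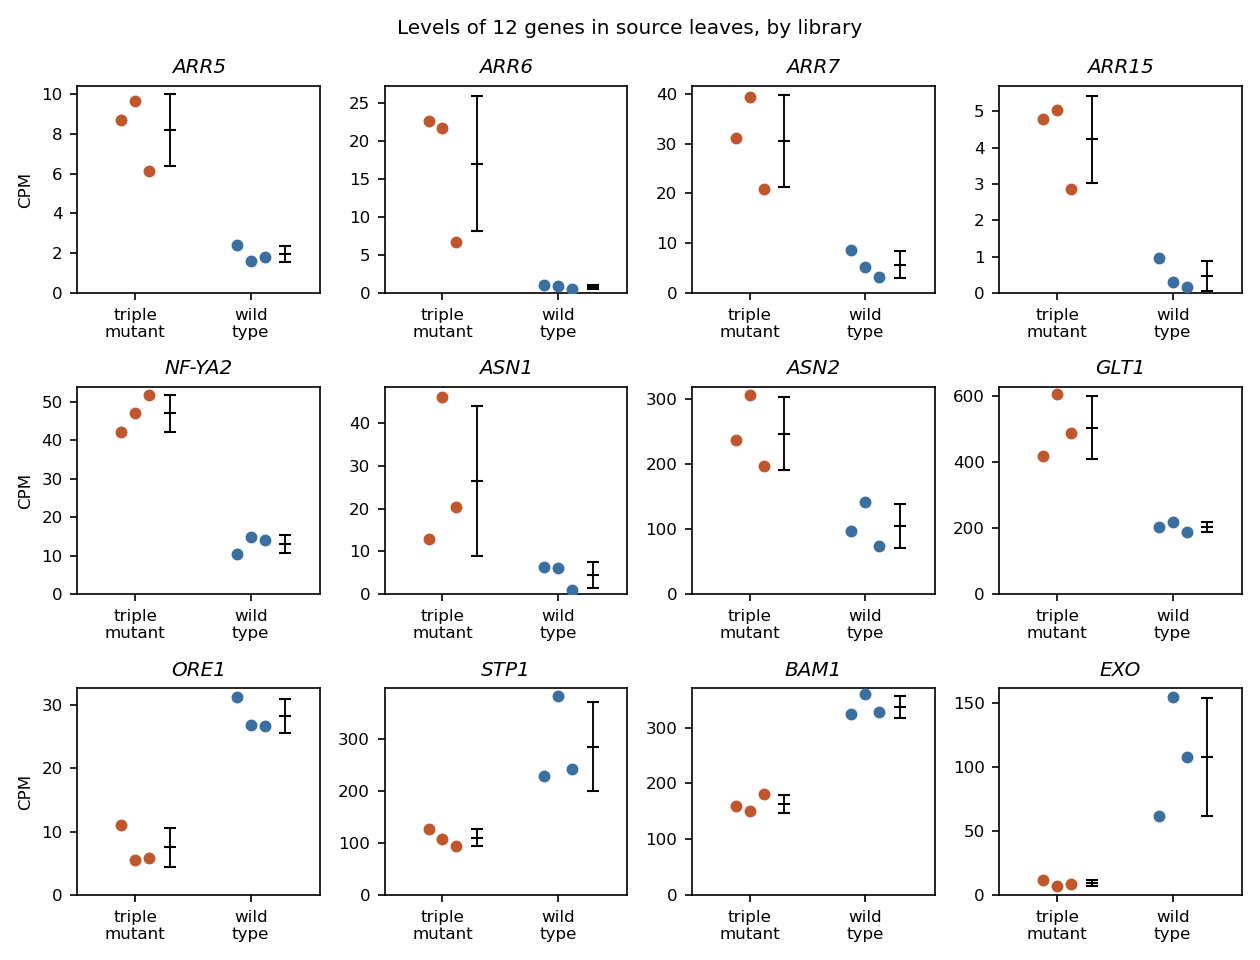
Levels in CPM (vertical axes, from 0) of 12 genes in source leaves, with 1 point per library, triple mutant left and wild type right, and bars for the mean and SD (n = 3 per group). The libraries of the groups do not overlap in any of the 12 genes, and the 3 points of ARR6 or ASN1 in the triple mutant lie far apart.

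Among the regulators, genes for subunit A of the nuclear factor Y complex (NF-YA), which binds CCAAT boxes and whose transcripts are largely targets of the miR169 family, included 1 of the 10 smallest p values. Of 10 tested NF-YA genes 4 rose and 1 fell. NF-YA2 held 42.2, 47.0 and 51.8 CPM in the triple mutant and 10.4, 14.7 and 14.0 CPM in wild type (log2 fold 1.86 ± 0.15, SE, adjusted p = 0.00175), so the lowest mutant library lay well above the highest wild-type library. NF-YA3 held 20.1, 26.4 and 26.9 CPM in the triple mutant and 10.7, 10.6 and 11.7 CPM in wild type (log2 fold 1.15 ± 0.14, adjusted p = 0.003). NF-YA6 rose by a log2 fold of 1.25 ± 0.16 (adjusted p = 0.00319) and NF-YA10 by 0.61 ± 0.18 (adjusted p = 0.0454), while NF-YA4 fell slightly, with a log2 fold of -0.43 ± 0.10 (adjusted p = 0.0225). The calls of NF-YA2, NF-YA3 and NF-YA6 held under all 12 alternatives, and NF-YA4 lost its call without triple mutant replicate 2 or any 1 of the wild-type libraries (adjusted p = 0.0583 to 0.104). NF-YA10 lost its call without any 1 library other than triple mutant replicate 1 (adjusted p = 0.0828 to 0.135). NF-YA1, NF-YA5, NF-YA7, NF-YA8 and NF-YA9 did not pass, with log2 folds between -0.48 and 0.56.

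Among genes of amino acid and ammonium metabolism, both synthesis and breakdown, rises outnumbered falls. Of 22 tested genes of this list 6 rose and 1 fell (median log2 fold 0.27). GLT1, the NADH-dependent glutamate synthase, held 417, 605 and 487 CPM in the triple mutant and 202, 219 and 186 CPM in wild type (log2 fold 1.31 ± 0.16, SE, adjusted p = 0.00305). ASN2, an asparagine synthetase, held 237, 306 and 196 CPM in the triple mutant and 97.2, 141 and 74.2 CPM in wild type (log2 fold 1.24 ± 0.24, adjusted p = 0.0121). For both genes the groups were apart. ASN1, the asparagine synthetase induced by darkness and sugar starvation and known as a gene that S1 bZIP proteins activate, rose as well. It held 12.8, 46.2 and 20.4 CPM in the triple mutant and 6.42, 6.11 and 0.937 CPM in wild type (log2 fold 2.56 ± 0.61, adjusted p = 0.023). Triple mutant replicate 2 was the highest library and wild-type replicate 3 by far the lowest, and the groups did not overlap. GDH2, a glutamate dehydrogenase, rose by a log2 fold of 1.05 ± 0.18 (adjusted p = 0.00829), P5CS2 of proline synthesis by 0.77 ± 0.16 (adjusted p = 0.0131) and P5CDH of proline breakdown by 0.39 ± 0.10 (adjusted p = 0.0281). P5CDH lost its call without any 1 library other than triple mutant replicate 1 (adjusted p = 0.0602 to 0.116), and P5CS2 without triple mutant replicate 2 or wild-type replicate 1 (adjusted p = 0.0631 and 0.0543). GLN1.1, a cytosolic glutamine synthetase, was the 1 gene that fell, with 76.5, 73.0 and 72.1 CPM in the triple mutant and 158, 111 and 136 CPM in wild type (log2 fold -0.87 ± 0.14, adjusted p = 0.00638). PRODH1, the first enzyme of proline breakdown and a known S1 bZIP target, held 24.2, 24.7 and 15 CPM in the triple mutant and 21.6, 18.9 and 19.6 CPM in wild type (log2 fold 0.08 ± 0.18, adjusted p = 0.788). GAT1_2.1, which encodes a glutamine amidotransferase, had a log2 fold of 0.01 ± 0.22 (adjusted p = 0.989). The groups overlapped in both. Without triple mutant replicate 2 the list held 2 rises, ASN1 and ASN2 not among them (adjusted p = 0.0986 and 0.0564), and without wild-type replicate 1 it held 4. Next to the list, ADC2, an arginine decarboxylase of polyamine synthesis, was among the 10 smallest p values, with 360.2, 394 and 314 CPM in the triple mutant and 118, 129 and 110.3 CPM in wild type (log2 fold 1.58 ± 0.14, adjusted p = 0.00175).

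Nitrogen carrier genes had a few falls and no rises. Of 15 tested amino acid carrier genes 0 rose and 4 fell (median log2 fold -0.10). Of 13 nitrate and ammonium transporter genes 0 rose and 2 fell (median log2 fold -0.29). Among all tested genes 8.86% were higher and 7.51% lower. LHT1, an importer of amino acids into leaf cells, held 26.9, 25.5 and 28.1 CPM in the triple mutant and 66.5, 56.1 and 53.1 CPM in wild type (log2 fold -1.12 ± 0.12, SE, adjusted p = 0.00275). AAP4 and AAP5, permeases for amino acids, and UMAMIT11, a member of an amino acid exporter family, had log2 folds of -0.88 ± 0.14, -0.41 ± 0.12 and -0.87 ± 0.16 (adjusted p = 0.00566, 0.0476 and 0.0103). AT1G25530, annotated as a transmembrane amino acid transporter, was among the largest falls and the smallest p values, with 1.03, 0.915 and 0.815 CPM in the triple mutant and 5.93, 4.96 and 5.62 CPM in wild type (log2 fold -2.59 ± 0.22, adjusted p = 0.00175). The nitrate transporter gene NRT1.5 fell (log2 fold -0.68 ± 0.15, adjusted p = 0.0193), and so did the ammonium transporter gene AMT1.1 (log2 fold -0.68 ± 0.14, adjusted p = 0.0147). AMT1.1 shares 1709 bases with AT4G13505 on the opposite strand, which held a mean of 271 CPM against 275 CPM for AMT1.1, so their counts may be the same reads. The transporter calls were 0 without triple mutant replicate 2 or wild-type replicate 2, 1 without wild-type replicate 1 and 5 without triple mutant replicate 1.

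Of the sucrose exporter genes, SWEET11, SWEET12 and SWEET13 did not differ detectably, while 4 sugar carrier genes and a few genes of sucrose and trehalose metabolism were lower. SWEET11 held 329, 259 and 266 CPM in the triple mutant and 242, 288 and 229 CPM in wild type (log2 fold 0.17 ± 0.15, SE, adjusted p = 0.467), and SWEET12 held 112, 69.7 and 74.0 CPM in the triple mutant and 86.0, 83.7 and 67.8 CPM in wild type (log2 fold 0.10 ± 0.19, adjusted p = 0.739). SWEET13 had a log2 fold of 0.14 ± 0.19 (adjusted p = 0.651). The groups overlapped in all 3. The related exporter genes SWEET9 and SWEET10 had no counts in the 6 libraries, and SWEET14 and SWEET15 were too low to be tested, SWEET15 at 0.0608, 0.0915 and 0.0407 CPM in the triple mutant and 0.874, 2.45 and 0.312 CPM in wild type. All triple mutant libraries lay below all wild-type libraries for SWEET15, with 4 counts in all in the triple mutant and 77 in wild type. It was called lower with DESeq2 (adjusted p = 0.000579), with no filter on low counts (0.00986), with the replicate block (0.0153), and without triple mutant replicate 1 or wild-type replicate 3 (0.0303 and 0.0123). The phloem loader SUC2 held 245, 149.5 and 159 CPM in the triple mutant and 239.6, 256 and 253 CPM in wild type (log2 fold -0.44 ± 0.19, adjusted p = 0.138), with replicate 1 of the mutant inside the wild-type range, and it was lower without that library (log2 fold -0.69, adjusted p = 0.00595). Of 21 sugar carrier genes 1 rose and 4 fell, against 8.86% higher and 7.51% lower among all tested genes. STP1, a proton-coupled hexose importer, held 127, 108 and 94.1 CPM in the triple mutant and 229, 383 and 242 CPM in wild type (log2 fold -1.37 ± 0.21, adjusted p = 0.00551). STP4, STP7 and the polyol carrier gene PMT5 fell by less (log2 folds -0.61 ± 0.11, -0.53 ± 0.13 and -0.51 ± 0.13, adjusted p = 0.0103, 0.0244 and 0.0324). GPT2, the glucose 6-phosphate carrier of the plastid envelope, was the 1 rise, with 6.08, 11.7 and 11.8 CPM in the triple mutant and 5.51, 4.38 and 3.79 CPM in wild type (log2 fold 1.11 ± 0.27, adjusted p = 0.023), and it lost its call without triple mutant replicate 2 or 3 or wild-type replicate 2 or 3 (adjusted p = 0.0599 to 0.10). The falls of the list numbered 1 without triple mutant replicate 2 and 2 without any 1 of the wild-type libraries, and PMT5 lost its call without any 1 library other than triple mutant replicate 1 (adjusted p = 0.0548 to 0.141).

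Sucrose phosphate synthase genes SPS1F and SPS4F fell (log2 folds -0.52 ± 0.12 and -0.73 ± 0.18, SE, adjusted p = 0.0215 and 0.0253), as 2 of 5 tested genes of sucrose synthesis. SPS1F held 158, 142 and 174 CPM in the triple mutant and 225, 229 and 226 CPM in wild type. Of 9 genes of sucrose cleavage 2 fell, SUS3 and CWINV6 (log2 folds -0.77 ± 0.17 and -0.75 ± 0.22, adjusted p = 0.016 and 0.0459). Both counts were 0 without triple mutant replicate 2 or wild-type replicate 1, that of synthesis also without wild-type replicate 2 or 3, and that of cleavage was 1 without triple mutant replicate 1 or wild-type replicate 2 or 3. BAM1, a plastid beta-amylase, held 159, 150.2 and 181 CPM in the triple mutant and 324, 360.3 and 328 CPM in wild type (log2 fold -1.05 ± 0.13, adjusted p = 0.003). SEX4, a glucan phosphatase of starch breakdown, fell too, with a log2 fold of -0.79 ± 0.14 (adjusted p = 0.00869). They were the 2 calls among 17 starch breakdown genes, a share near the 7.51% of all tested genes that were lower. APL3, a large subunit of ADP-glucose pyrophosphorylase, was the 1 call among 16 starch synthesis genes, again near that share (log2 fold -1.11 ± 0.28, adjusted p = 0.0278), and it lost this call without triple mutant replicate 2 or wild-type replicate 1 or 3 (adjusted p = 0.0824 to 0.116). Of 15 trehalose pathway genes 2 fell, TPS11 (log2 fold -1.04 ± 0.16, adjusted p = 0.00605) and TPS9 (log2 fold -0.83 ± 0.19, adjusted p = 0.0188), both of the class with no known synthase activity in Arabidopsis. This count is again to be read against the 7.51% of all tested genes that were lower. TPS11 held 32.2, 30.9 and 37.8 CPM in the triple mutant and 58.6, 86.8 and 62.0 CPM in wild type, without overlap. TPS8 held 43.3, 20.9 and 109 CPM in the triple mutant and 157, 204 and 127 CPM in wild type and did not pass (adjusted p = 0.0644), though it did with no filter on low counts or without triple mutant replicate 3 (adjusted p = 0.0382 and 0.00625). Without triple mutant replicate 2 there was 1 trehalose pathway fall.

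Low energy and SnRK1 genes showed no common direction. Of 17 tested low energy and starvation genes 1 rose, ASN1, and 2 fell, the SnRK1 beta subunit gene AKINBETA1 (log2 fold -0.98 ± 0.21, SE, adjusted p = 0.0154) and EXO. AKINBETA1 held 33.8, 20.4 and 24.1 CPM in the triple mutant and 44.2, 64.5 and 45.3 CPM in wild type. The 1 rise and 2 falls are to be read against 8.86% higher and 7.51% lower among all tested genes. The list median was 0.01 on the log2 scale, and 0 of 6 other SnRK1 and TOR kinase subunit genes passed. Few photosynthesis genes passed. Of 35 light harvesting and photosystem genes 0 passed in either direction (median log2 fold -0.11), of 18 Calvin cycle genes the regulator gene CP12-2 fell (log2 fold -0.64 ± 0.14, adjusted p = 0.0161), and of 9 photorespiration genes GLDP1, a glycine decarboxylase subunit, fell (log2 fold -0.60 ± 0.17, adjusted p = 0.0456). GLDP1 lost its call without any 1 library other than triple mutant replicate 1, and CP12-2 without triple mutant replicate 2 or wild-type replicate 2 or 3 (adjusted p = 0.0570 to 0.0879). The falls among the low energy genes numbered 1 without triple mutant replicate 2.

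Several senescence genes were lower in the triple mutant. Leaf senescence is driven by NAC and WRKY transcription factors and includes the breakdown of chlorophyll. Of 19 tested senescence genes 0 rose and 6 fell (median log2 fold -0.56). ORE1, a NAC factor that promotes senescence, held 11.1, 5.58 and 5.91 CPM in the triple mutant and 31.3, 26.8 and 26.7 CPM in wild type (log2 fold -1.93 ± 0.24, SE, adjusted p = 0.00305), so the groups were far apart. NAP, another NAC factor, held 17.38, 20.8 and 64.2 CPM in the triple mutant and 143, 116 and 118 CPM in wild type (log2 fold -1.87 ± 0.42, adjusted p = 0.0194), with triple mutant replicate 3 nearest to wild type. WRKY53 fell, with a log2 fold of -1.12 ± 0.31 (adjusted p = 0.039). The chlorophyll breakdown genes PPH (pheophytinase), ACD1 (pheophorbide a oxygenase) and NYE1 had log2 folds of -0.78 ± 0.12, -0.78 ± 0.16 and -0.66 ± 0.19 (adjusted p = 0.00578, 0.014 and 0.0455). PPH held 61.9, 68.6 and 75.4 CPM in the triple mutant and 127, 119 and 108 CPM in wild type. SAG12, a protease gene of late senescence, was uneven, at 0, 12.9 and 22.4 CPM in the triple mutant and 0, 3.03 and 0 CPM in wild type, and did not pass (adjusted p = 0.107). When triple mutant replicate 1 was left out, 3 genes of the list were higher in the triple mutant, SAG12, SAG13 and WRKY75 (log2 folds 4.29, 1.14 and 1.91, adjusted p = 0.0140, 0.0170 and 0.00419). In that fit 4 were lower. WRKY75 was also higher with DESeq2 and with no filter on low counts (adjusted p = 0.0141 and 0.0424). WRKY53 lost its call without triple mutant replicate 1 or 2 or wild-type replicate 1 or 3 (adjusted p = 0.0627 to 0.131). NYE1 lost its call without any 1 library other than triple mutant replicate 3 (adjusted p = 0.0665 to 0.157). The falls of the list numbered 2 without triple mutant replicate 2 or wild-type replicate 1, and NAP and ACD1 were lost there (adjusted p = 0.0523 to 0.0830).

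Salicylic acid and abscisic acid genes fell in part, and no member of either list rose. Of 25 salicylic acid and immune genes 9 fell (median log2 fold -0.41), most of them by small folds. WRKY18, a transcription factor of basal defence, held 10.2, 10.11 and 12.5 CPM in the triple mutant and 20.6, 18.9 and 23.56 CPM in wild type (log2 fold -0.94 ± 0.14, SE, adjusted p = 0.00506). NIMIN1 and NIMIN-2, which encode partners of the salicylic acid receptor NPR1, had log2 folds of -1.67 ± 0.32 and -0.97 ± 0.21 (adjusted p = 0.0108 and 0.0171), and the wall-associated kinase gene WAK1 one of -0.62 ± 0.13 (adjusted p = 0.0149). WRKY38, ACD6, SARD1, PAD4 and NPR1 fell too (log2 folds of -0.75, -0.60, -0.51, -0.44 and -0.42). NPR1 kept its call without triple mutant replicate 3 or wild-type replicate 3, SARD1 without wild-type replicate 3, and WRKY38, ACD6 and PAD4 without triple mutant replicate 1, and these 5 genes lost it without any other 1 library. The late markers PR1, PR2 and PR5 did not pass (log2 folds 0.02, -0.12 and -0.42). This count depended on the libraries, with 2 falls without triple mutant replicate 2 or wild-type replicate 1, 4 without wild-type replicate 3 and 5 without triple mutant replicate 3 or wild-type replicate 2. Of 19 abscisic acid and dehydration genes 5 fell (median log2 fold -0.80). RAB18, a dehydrin gene, held 12.2, 7.19 and 9.49 CPM in the triple mutant and 19.3, 48.9 and 23.8 CPM in wild type, and COR47, another dehydrin gene, held 108, 106 and 114 CPM in the triple mutant and 174, 233 and 402 CPM in wild type. In both the groups were apart (log2 folds -1.67 ± 0.34 and -1.3 ± 0.26, adjusted p = 0.0129 and 0.0131), and both lost their call without triple mutant replicate 2 (adjusted p = 0.0650 and 0.0649). ABF3, a bZIP factor of the abscisic acid response, HB7 and the phosphatase gene ABI1 fell, with log2 folds of -0.93, -0.76 and -0.40 (adjusted p = 0.0049, 0.00763 and 0.0436), and ABI1 lost its call without any 1 library (adjusted p = 0.0505 to 0.174). RD29A, RD29B, ERD10, LEA4-5 and LEA7 had log2 folds between -2.19 and -1.06 and did not pass, although LEA4-5 did with DESeq2, no filter on low counts or without triple mutant replicate 3 (adjusted p = 0.00768 to 0.0442). The 5 falls became 2 without triple mutant replicate 2 and 9 without triple mutant replicate 3.

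**Figure D3:**
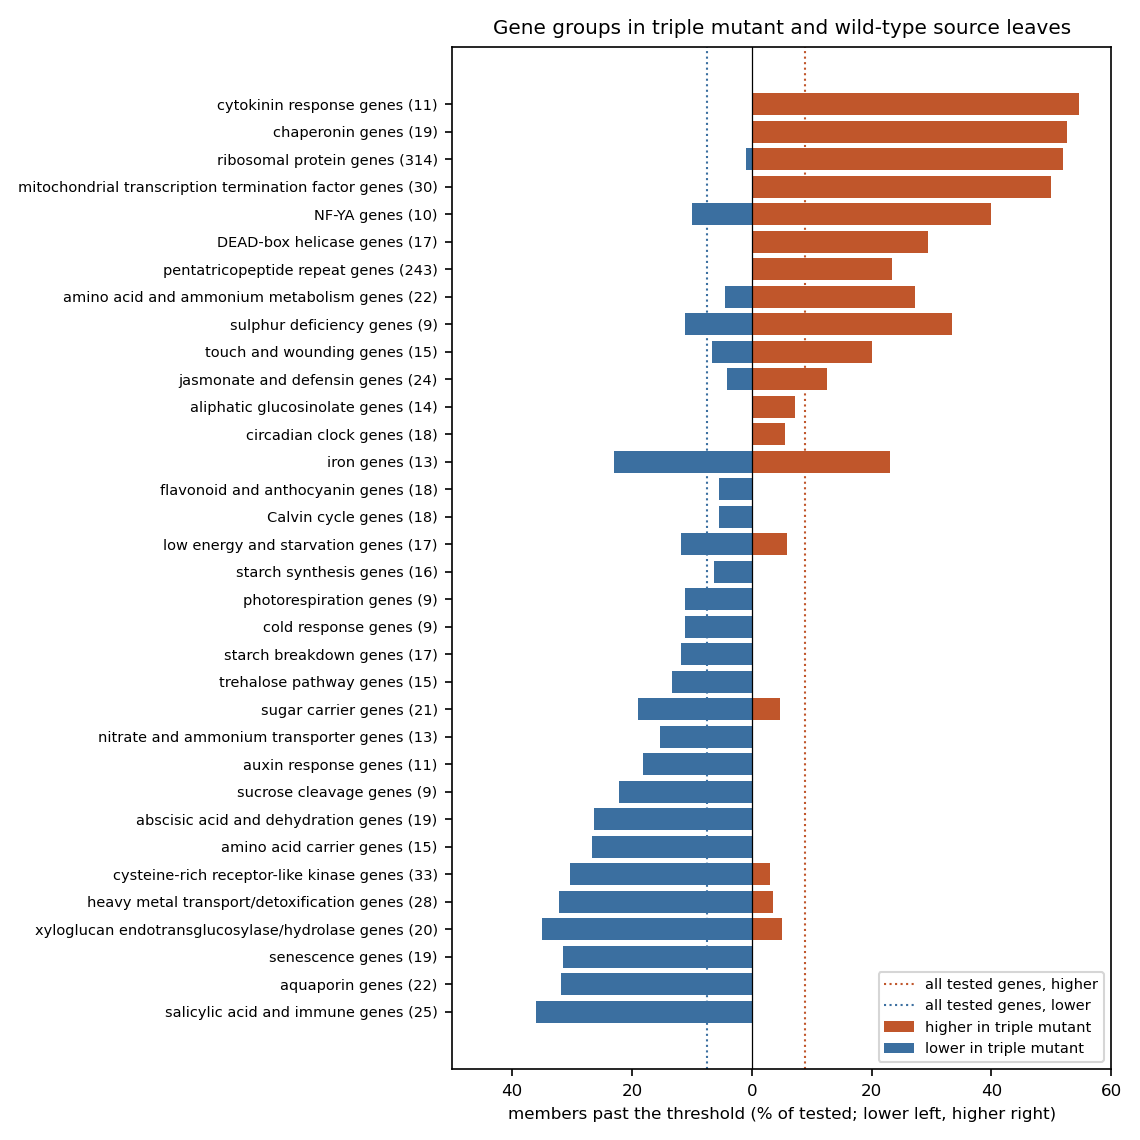
Share of tested members past the threshold (horizontal axis, percent, higher in the triple mutant to the right and lower to the left) in gene groups with at least 9 tested members and at least 1 call, with the number tested in brackets and dotted lines for all tested genes. Cytokinin response, chaperonin and ribosomal protein genes reach farthest to the right, and salicylic acid, xyloglucan endotransglucosylase/hydrolase and heavy metal genes farthest to the left.

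Several of the largest falls belonged to cell wall and cell expansion genes. EXO (EXORDIUM), needed for cell expansion in Arabidopsis leaves, held 11.9, 7.14 and 8.43 CPM in the triple mutant and 61.8, 154 and 108 CPM in wild type (log2 fold -3.57 ± 0.33, SE, adjusted p = 0.00212), 11.9-fold lower in the triple mutant. Its relative PHI-1 held 17.8, 5.31 and 12.5 CPM in the triple mutant and 31.4, 117 and 63.1 CPM in wild type (log2 fold -2.58 ± 0.51, adjusted p = 0.0122). In both genes wild-type replicate 2 was the highest library and all triple mutant libraries lay below all wild-type libraries. EXLA1, an expansin-like gene, held 3.34, 4.03 and 4.24 CPM in the triple mutant and 10.5, 28.3 and 21.1 CPM in wild type (log2 fold -2.35 ± 0.33, adjusted p = 0.00428). Xyloglucan endotransglucosylase/hydrolase genes (XTH), whose enzymes cut and rejoin wall polymers, had 7 falls and 1 rise among 20 tested genes, XTH18 with a log2 fold of -2.10 ± 0.34 (adjusted p = 0.00637) and TCH4 with -1.62 ± 0.35 (adjusted p = 0.016). Of 22 aquaporin genes 0 rose and 7 fell (median log2 fold -0.40). These last 2 groups were taken from RefSeq product names after the values had been seen. Falls numbered 3 among XTH genes without triple mutant replicate 2 and 4 without wild-type replicate 2, and among aquaporin genes 3 without triple mutant replicate 2 and 4 without triple mutant replicate 3 or wild-type replicate 1 or 2. TCH4 is also a touch gene, and of 15 touch and wounding genes TCH4 fell and STZ, ERF6 and ERF104 rose (log2 folds 0.61, 1.09 and 0.80, adjusted p = 0.0497, 0.0384 and 0.0161). These rises numbered 0 without wild-type replicate 1 and 1 without triple mutant replicate 1 or 3 or wild-type replicate 3, and TCH4 lost its call without triple mutant replicate 2 (adjusted p = 0.0730). Among all tested genes 8.86% were higher and 7.51% lower.

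Other large falls were of enzymes and genes without a described role. AT1G34060, annotated as a pyridoxal phosphate-dependent transferase, had the smallest p of all, with 1.03, 1.14 and 2.00 CPM in the triple mutant and 19.2, 14.1 and 14.0 CPM in wild type (log2 fold -3.47 ± 0.26, SE, adjusted p = 0.00175), 11.1-fold lower. AT3G62950, a thioredoxin superfamily gene, fell, with a log2 fold of -2.71 ± 0.48 (adjusted p = 0.00856), as did MIOX1, an inositol oxygenase gene, with -2.35 ± 0.40 (adjusted p = 0.00819) and PP2-A6, a phloem lectin family gene, with -2.05 ± 0.38 (adjusted p = 0.00979). AT5G28450, annotated as a chlorophyll a/b binding protein, held 1.76, 1.05 and 0.733 CPM in the triple mutant and 5.47, 7.15 and 2.99 CPM in wild type (log2 fold -2.17 ± 0.39, adjusted p = 0.00948), a call lost without triple mutant replicate 2 (adjusted p = 0.0510). AT5G57760 and AT5G57770 overlap over 404 bases on opposite strands, and their folds (-2.27 ± 0.60 and -2.15 ± 0.61 on the log2 scale) may count the same reads. Neither call held with DESeq2 or the replicate block. AT5G57760 lost its call without triple mutant replicate 2 or any 1 of the wild-type libraries (adjusted p = 0.0533 to 0.136), and AT5G57770 without any 1 library other than triple mutant replicate 1 (adjusted p = 0.0572 to 0.158). Their log2 folds with 1 library left out ranged between -3.47 and -1.74 and between -3.34 and -1.61. The last of the 15 largest falls were AT1G13650, AT1G02470 and AT3G19680 (log2 folds -2.23, -2.16 and -2.15), and AT1G02470 lost its call without triple mutant replicate 2 or wild-type replicate 1 (adjusted p = 0.0866 and 0.0979). The 4 falls of smaller size with p values among the 10 smallest were AT5G18130 (18.4, 20.3 and 25.7 CPM in the triple mutant and 74.0, 63.1 and 68.2 CPM in wild type), the hydroxyproline-rich glycoprotein gene AT1G23040, AT4G14930 and the ankyrin repeat gene AT4G11000 (log2 folds -1.67, -1.54, -1.23 and -1.74).

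The largest rises included defence and stress enzymes with low levels in wild type. CYP82C2, a cytochrome P450 of indole defence compounds, held 0.972, 7.09 and 4.4 CPM in the triple mutant and 0, 0.157 and 0.0446 CPM in wild type (log2 fold 6.02 ± 0.94, SE, adjusted p = 0.00577). DOX1, a fatty acid alpha-dioxygenase, held 4.62, 29.1 and 35.7 CPM in the triple mutant and 0.912, 3.86 and 0.134 CPM in wild type (log2 fold 3.91 ± 0.88, adjusted p = 0.0189), with mutant replicate 1 close to wild-type replicate 2. AT1G26390, a berberine bridge family enzyme, held 19.0, 58.3 and 44.7 CPM in the triple mutant and 5.32, 6.42 and 3.66 CPM in wild type (log2 fold 2.99 ± 0.38, adjusted p = 0.00319). The peroxidase gene AT5G06730 had a log2 fold of 3.85 ± 0.46 (adjusted p = 0.003), the lectin gene JAL22 3.14 ± 0.64 (adjusted p = 0.0131) and AT1G13520 2.65 ± 0.61 (adjusted p = 0.0206). In CYP82C2, DOX1, AT1G26390, AT5G06730, JAL22 and AT1G13520 triple mutant replicate 1 was the lowest library of its group. DOX1, JAL22 and AT1G13520 lost their calls without triple mutant replicate 2 or wild-type replicate 1 (adjusted p = 0.0543 to 0.0861), DOX1 and AT1G13520 also without wild-type replicate 3 (adjusted p = 0.0509 and 0.0578). EMB2729, with 5.41, 12 and 6.84 CPM in the triple mutant and 1.33, 1.3 and 1.43 CPM in wild type (log2 fold 2.58 ± 0.31, adjusted p = 0.003), and the arginine methyltransferase gene PRMT1A (log2 fold 2.55 ± 0.29, adjusted p = 0.00285) rose as well. AT2G05914 and AT2G05915 overlap on opposite strands over 450 bases and rose with log2 folds of 2.82 ± 0.23 and 2.74 ± 0.36, which may count the same reads. MBP1, a myrosinase-binding protein gene, held 45.5, 56.5 and 70.0 CPM in the triple mutant and 12, 10.6 and 15.1 CPM in wild type (log2 fold 2.19 ± 0.19, adjusted p = 0.00175).

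Genes of protein synthesis and of organelle RNA rose in large numbers, mostly by small folds. Of 314 tested genes annotated as ribosomal proteins 163 rose and 3 fell (median log2 fold 0.56, against -0.01 for all genes), a share of rises to be read against 8.86% for all tested genes. Their summed level was 39240.1, 37938 and 31369.7 CPM in the triple mutant and 21531, 27183 and 27409 CPM in wild type, so the sums did not overlap. AT4G12600, a ribosomal protein L7Ae family gene, held 67.5, 87.2 and 77.6 CPM in the triple mutant and 24.0, 32.5 and 35.1 CPM in wild type (log2 fold 1.34 ± 0.16, SE, adjusted p = 0.00300). RPL3P, a plastid ribosomal protein gene, held 45.7, 49.9 and 41.8 CPM in the triple mutant and 22.5, 25.2 and 26.2 CPM in wild type (log2 fold 0.90 ± 0.11, adjusted p = 0.00321). Chaperonin genes, which fold proteins in plastids, mitochondria and cytosol, had 10 rises and 0 falls among 19 tested. Of 30 mitochondrial transcription termination factor genes 15 rose and 0 fell, of 243 pentatricopeptide repeat genes, most of which process organelle RNA, 57 rose and 0 fell, and of 17 DEAD-box helicase genes 5 rose and 0 fell. These groups were taken from RefSeq product names after the values had been seen, and many ribosomal protein genes have near-identical copies between which the counting could split reads. The ribosomal protein rises numbered 34 without triple mutant replicate 2, 66 without wild-type replicate 1 and 90 without wild-type replicate 2. The pentatricopeptide repeat rises numbered 13, 21 and 21 in those fits, the termination factor rises 6, 7 and 8 (and 9 without triple mutant replicate 3), the chaperonin rises 5, 5 and 6, and the helicase rises 1, 1 and 2 (2 and 3 without triple mutant or wild-type replicate 3). The chloroplast-encoded share of counts was higher in the triple mutant libraries, and with organelle genes left out of the fit 163 ribosomal protein genes rose.

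Several smaller lists had calls in part or in both directions, to be read against 8.86% higher and 7.51% lower among all tested genes. Of 13 iron genes 3 rose and 3 fell. FER3 and FER1, ferritins that store iron in plastids, rose by log2 folds of 1.24 ± 0.15 and 0.70 ± 0.18 (SE, adjusted p = 0.003 and 0.0283), as did the nicotianamine synthase gene NAS4 (log2 fold 0.59), while BTS, PYE and OPT3 of the iron deficiency response fell (log2 folds -0.54, -0.74 and -0.45). FER3 held 20.4, 18.4 and 16.5 CPM in the triple mutant and 6.58, 7.93 and 8.92 CPM in wild type. Of 9 sulphur deficiency genes 3 rose, APR3 and APR2 of sulphate reduction and SDI1 (log2 folds 0.87, 0.57 and 1.25), and LSU2 fell (-0.47), a call lost without any 1 library (adjusted p = 0.0640 to 0.181), with RLE scaling (0.0509) and with the replicate block (0.0901). Of 24 jasmonate and defensin genes 3 rose, AOC2 and LOX2 of jasmonate synthesis and VSP1 (log2 folds 0.82, 0.59 and 2.46), and the defensin gene PDF1.2b fell (-1.33). Iron gene falls numbered 0 without triple mutant replicate 2 and 1 without any 1 of the wild-type libraries, and rises numbered 1 without wild-type replicate 1 or 3. OPT3 lost its call without any 1 library other than triple mutant replicate 1 (adjusted p = 0.0634 to 0.179), and FER1 without triple mutant replicate 2 or 3 or wild-type replicate 1 or 3 (adjusted p = 0.0688 to 0.0961). Sulphur gene rises numbered 1 without triple mutant replicate 2 or any 1 of the wild-type libraries. Jasmonate gene rises numbered 6 without triple mutant replicate 1 and 1 without any 1 of the other libraries. PDF1.2b lost its call without triple mutant replicate 2 or wild-type replicate 1 or 2 (adjusted p = 0.0543 to 0.0899). Auxin response genes had 2 falls of 11, IAA6 (0.425, 0.0915 and 0.407 CPM in the triple mutant and 1.22, 1.3 and 1.7 CPM in wild type, log2 fold -2.19 ± 0.45, adjusted p = 0.0141) and IAA17 (log2 fold -0.68 ± 0.17), and these numbered 0 without wild-type replicate 3, 5 without triple mutant replicate 1 and 1 without any 1 of the other libraries. Single calls, which are to be read against 8.86% higher and 7.51% lower among all tested genes and are no result about their lists, came from the clock gene LUX (1 of 18, log2 fold 0.79), the gibberellin-regulated gene GASA6 (1 of 5, 1.00), CYP79B2 of indole glucosinolate synthesis (1 of 8, 0.75), SOT17 of aliphatic glucosinolate synthesis (1 of 14, 0.49), the flowering gene SOC1 (1 of 7, -0.47), the heat shock gene HSP90.1 (1 of 5, -0.76) and the cold-induced galactinol synthase gene GolS2 (1 of 9, -0.81). F3H was the 1 call among 18 flavonoid genes (-0.49), again no result about its list, and has the same counts as AT3G51238 on the opposite strand. In the fit without triple mutant replicate 1, 5 flavonoid genes were lower (F3H, 4CL3, TT4, CHIL and FLS1, log2 folds -1.97 to -0.43, adjusted p = 0.00231 to 0.0448). The falls were PAP1 and MYBL2 without triple mutant replicate 3 and PAP2 alone without wild-type replicate 2. In the fit without any 1 of the other libraries there were 0. CYP79B2 kept its call without any 1 library, GASA6 lost it without triple mutant replicate 2 (adjusted p = 0.0566), and LUX, SOT17, SOC1, HSP90.1, GolS2 and F3H lost theirs when any 1 of 3 to 6 of the libraries was left out. Of 10 phosphate starvation genes 0 passed. Of 33 cysteine-rich receptor-like kinase genes 10 fell and 1 rose, and of 28 heavy metal transport/detoxification genes 9 fell and 1 rose, both groups taken from product names after the values were seen. Without triple mutant replicate 2 these falls numbered 5 and 2.

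The same genotypes were compared in sink leaves, in 6 libraries that share no sample with the source leaves. There 4621 of 18888 tested genes passed (24.5%, with 12.4% higher and 12.1% lower). Of the 1636 genes that rose in source leaves and were tested in sink leaves 1144 rose there too and 5 fell, and of the 1398 that fell in source leaves 854 fell in sink leaves and 1 rose. The shared rises are 68.7% of the source leaf rises and 49.0% of the sink leaf rises, and the shared falls are 60.5% and 37.4%. Among the 106 genes chosen by the naming rule, past the threshold in source leaves and tested in sink leaves, 75 passed in sink leaves, 1 of them in the other direction. ARR6 held 9.11, 16.0 and 6.33 CPM in triple mutant sink leaves and 2.30, 1.63 and 1.86 CPM in wild-type sink leaves (log2 fold 2.48 ± 0.34, SE, adjusted p = 0.00236). ASN1 held 21.6, 151 and 57.0 CPM in triple mutant sink leaves and 4.47, 8.22 and 5.11 CPM in wild-type sink leaves (log2 fold 3.74 ± 0.63, adjusted p = 0.00457). ORE1 held 0.637, 0.158 and 0.0973 CPM in triple mutant sink leaves and 8.99, 8.75 and 5.35 CPM in wild-type sink leaves (log2 fold -4.58 ± 0.48, adjusted p = 0.00141). For these 3 genes the groups did not overlap in either tissue. In sink leaves EXO did not pass, at 48.4, 164 and 156 CPM in triple mutant sink leaves and 137, 193 and 161 CPM in wild-type sink leaves (log2 fold -0.37 ± 0.37, adjusted p = 0.502), and PRODH1 rose there, with a log2 fold of 1.36 ± 0.26 (adjusted p = 0.00718). PDF1.2b had log2 folds of -1.33 in source leaves and 2.29 in sink leaves.

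A direct test of the difference between tissues called no gene. In the model of 12 libraries 0 of 19415 genes differed between source and sink leaves in their genotype effect (0.00%, edgeR quasi-likelihood test), and 2003 genes (10.3%) had an unadjusted p under 0.05. No other tool was run on this difference. The 5 smallest p values belonged to AT2G28410, LHT1, AT2G18690, GSTU7 and HSP70, with differences of -1.43 ± 0.19, 1.29 ± 0.21, 1.99 ± 0.32, 0.91 ± 0.14 and 2.19 ± 0.36 (source minus sink log2 fold ± SE, adjusted p = 0.0615, 0.101, 0.101, 0.101 and 0.101). The differences of EXO and PDF1.2b were -3.15 ± 0.57 and -3.57 ± 0.84 (adjusted p = 0.101 and 0.152). Without wild-type sink replicate 3, 50 genes passed, without triple mutant source replicate 1, 15 passed, and without triple mutant sink replicate 1 or wild-type sink replicate 2, 3 and 2 passed.

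**Figure D4:**
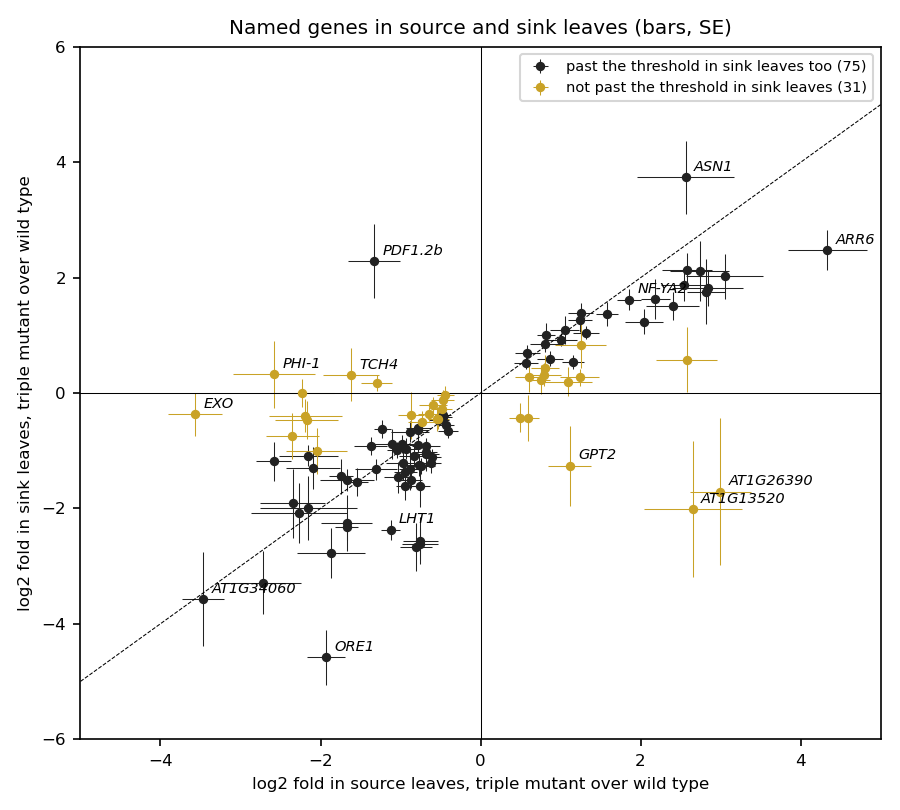
Log2 fold of triple mutant over wild type in source leaves (horizontal axis) and in sink leaves (vertical axis) for 106 genes chosen by the naming rule and past the threshold in source leaves, with 1 point per gene, bars for the SE and a dashed line where both are equal. Black points, 75 genes, pass in sink leaves as well, and PDF1.2b is the 1 black point with opposite signs.

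Source leaves of the quintuple mutant were set against those of the triple mutant in a model of the 9 source leaf libraries, in which CPM was scaled anew. There 6689 of 19206 genes differed (34.8%, with 16.5% higher and 18.3% lower in the quintuple mutant). The comparison shares its triple mutant libraries with the one above, so values are set side by side only. ORE1 held 19.4, 18.3 and 48.3 CPM in the quintuple mutant, 11.7, 5.93 and 6.22 CPM in the triple mutant and 32.6, 27.9 and 27.8 CPM in wild type (log2 fold of quintuple over triple 1.86 ± 0.39, SE, adjusted p = 0.0106). ASN1 held 0.802, 0.945 and 1.94 CPM in the quintuple mutant, 13.5, 49.1 and 21.5 CPM in the triple mutant and 6.70, 6.36 and 0.977 CPM in wild type (log2 fold of quintuple over triple -4.49 ± 0.74, adjusted p = 0.00559). All triple mutant libraries were the lowest of the 9 for ORE1 and the highest for ASN1. GLN1.1 held 208, 243 and 232 CPM in the quintuple mutant, 80.6, 77.6 and 76.0 CPM in the triple mutant and 165, 116 and 142 CPM in wild type (log2 fold of quintuple over triple 1.54 ± 0.15, adjusted p = 0.00157), and AT1G34060 likewise stood lowest in the triple mutant, with a log2 fold of quintuple over triple of 4.15 ± 0.40 (adjusted p = 0.00156). NF-YA2 stood in steps, at 88.7, 86.3 and 71.8 CPM in the quintuple mutant, 44.4, 49.95 and 54.6 CPM in the triple mutant and 10.8, 15.3 and 14.6 CPM in wild type (log2 fold of quintuple over triple 0.73 ± 0.16, adjusted p = 0.0117). ARR6 held 14.5, 14.3 and 2.17 CPM in the quintuple mutant, 24.0, 23.1 and 7.13 CPM in the triple mutant and 1.11, 0.924 and 0.559 CPM in wild type. The quintuple and triple mutant libraries overlapped (log2 fold of quintuple over triple -0.81 ± 0.62, adjusted p = 0.325).

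By list, quintuple over triple mutant source leaves had 15 rises and 0 falls among 19 senescence genes, 22 and 0 among 25 salicylic acid and immune genes, 6 and 0 among 10 NF-YA genes, 2 and 12 among 22 amino acid and ammonium metabolism genes, 0 and 1 among 11 cytokinin response genes and 8 and 155 among 319 ribosomal protein genes. Among all tested genes 16.5% were higher and 18.3% lower in the quintuple mutant. Light harvesting and photosystem genes, of which 0 passed between triple mutant and wild type, had 0 rises and 33 falls among 35. Of the S1 bZIP genes bZIP1 and bZIP53 were higher in the quintuple than in the triple mutant (log2 folds 1.48 ± 0.32 and 0.68 ± 0.19, adjusted p = 0.0113 and 0.0235). The 5 smallest p values were those of AT2G36885, NEET, AT2G15880, emb2411 and PIRL2 (log2 folds of quintuple over triple -4.05, -2.99, 3.11, -1.76 and 1.87). The first 3 of these genes had log2 folds of 0.30, 0.04 and 0.01 between triple mutant and wild type and did not pass there. The number of calls was 2456 without quintuple replicate 2, 2625 without triple mutant replicate 2, 3641 without triple mutant replicate 1, and 4186 and 4316 without replicate 3 of the quintuple or the triple mutant. In a fit of quintuple mutant and wild-type source leaves alone, 7 senescence genes rose and 0 fell, as did 11 and 0 salicylic acid and immune genes. The 10 NF-YA genes had 7 rises and 1 fall there, 22 amino acid and ammonium metabolism genes 3 and 4, and 11 cytokinin response genes 2 and 0. Of 316 ribosomal protein genes 6 rose and 5 fell, and of 35 light harvesting and photosystem genes 0 rose and 18 fell.

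**Figure D5:**
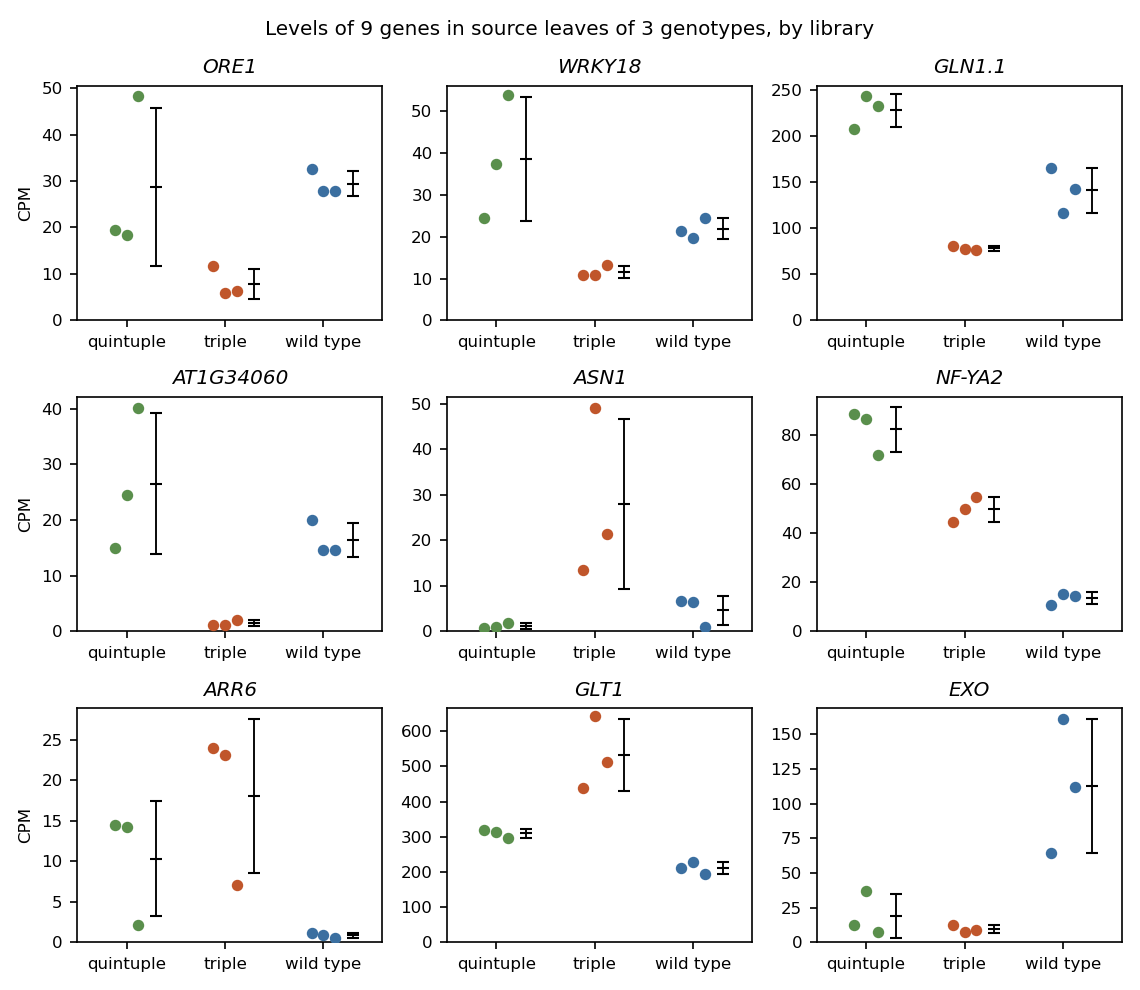
Levels in CPM (vertical axes, from 0) of 9 genes in source leaves of the quintuple mutant, the triple mutant and wild type, with 1 point per library and bars for the mean and SD (n = 3 per group). ORE1, WRKY18, GLN1.1 and AT1G34060 are lowest and ASN1 and GLT1 highest in the triple mutant, while NF-YA2 is highest in the quintuple mutant.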

How the data were processed

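Poly-A RNA of untreated plants was sequenced with a stranded kit, per the labels' protocols. The authors deposited raw read counts per locus in 8 tables with 28775 loci each. Each table holds 1 mutant genotype and the wild type of 1 tissue, so the wild-type libraries recur in the tables of both mutants. Genome build TAIR10 and the tools Salmon 0.7.2, SAMtools 0.1.18, R 3.5.1, edgeR and DESeq2 are named without roles, per the submitters' processing notes. The sources used here do not state whether the deposited values are rounded estimates or whether strand entered the counting. Estimated counts would split reads between near-identical genes.

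Samples were grouped by the genotype and tissue labels, and every comparison used edgeR 4.0.16 in R 4.3.3 on the deposited counts, with TMM scaling, filterByExpr, the quasi-likelihood test and Benjamini-Hochberg adjustment over all tested genes (threshold 0.05). The main fit held the 6 source leaf libraries, the test of source minus sink leaves held 12, and the test of quintuple over triple mutant held the 9 source leaf libraries. Log2 folds are triple mutant over wild type unless named otherwise, and the SE is the size of the log2 fold divided by the root of F. CPM uses the TMM library sizes of its fit. The procedure was tested on counts simulated with the same spread for all genes and no library that stood apart. That test does not show how far the calls rest on single libraries. Depth was 18313059 to 25124369 counts per library, and counting error limits genes of few counts. Alternatives were DESeq2 1.42.0, RLE scaling, no filter, organelle genes left out, all 9 source leaf libraries, the replicate number as a block, and each library left out. Replicates differed by more than sampling noise in every pair.

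Genes named are the S1 bZIP and clade III SWEET genes, ASN1, PRODH1 and GAT1_2.1, the 15 largest rises and falls among called genes without overlap and with at least 2 CPM in the higher group, the 10 smallest p values, up to 4 called members of each list by p, and the 5 smallest p values of the other tests. Other genes, such as uncalled list members, AT4G12600 and RPL3P, were chosen after their values were seen. The members and the 44 lists were chosen with earlier results of these data known, and 9 list members without a name in the reference were dropped. Gene names and products came from RefSeq, which lists 28009 of the loci. Sequences came from the RefSeq TAIR10.1 genome, on which 18596 of the 18795 tested genes had a readable window.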

Additional observations from a re-analysis of the deposited data

How the results depend on the processing

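Of the 112 genes past the threshold that the naming rule chose, 27 kept their call under all 12 alternatives, and none of the 112 changed direction. Of the other 18 called genes described, chosen after their values were seen, 1 kept its call under all 12 and none changed direction, and of 14 such uncalled genes 5 passed under at least 1 alternative. DESeq2 ended 3 calls and RLE scaling 2, while no filter and organelle genes left out ended 0, and all 9 source leaf libraries in 1 model ended 85 of the 112 and 17 of the 18. The 3076 calls between triple mutant and wild type became 3587 with DESeq2, 3018 with RLE scaling and 3130 with no filter. With all 9 source leaf libraries in 1 model they were 232, 6 of 11 cytokinin rises became 2 and 163 ribosomal protein rises became 3, and the cause was not tested. With 1 library left out they ranged between 766 and 4022. With the replicate number of the labels as a block (replicate block) they were 1330, with 6 cytokinin and 81 ribosomal protein rises and 2 falls of salicylic acid genes, and 36 of the 112 and 11 of the 18 calls ended. Deviations from the group means of same-numbered libraries correlated at -0.33, -0.19 and -0.16, and those of differently numbered libraries at -0.155 to 0.336. Each group mean rests on 3 libraries, so these values cannot decide whether the numbers pair the libraries. The difference between source and sink leaves called 0 genes under RLE scaling, no filter, organelle genes left out and the replicate block, and between 0 and 50 with 1 library left out. Quintuple over triple mutant called 6689 genes, 5717 with the replicate block, 6441 to 6696 under scaling and filter alternatives and 2456 to 9898 with 1 library left out.

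Among uncalled genes with log2 folds near 0 the sign turned with 1 library left out. The log2 fold ranged between -0.17 (without triple mutant replicate 2) and 0.11 for GAT1_2.1, which was also at -0.08 without wild-type replicate 1 and at -0.011 with the replicate block. It ranged between -0.14 (without triple mutant replicate 1) and 0.21 for bZIP44, which was at -0.07 without wild-type replicate 3. It ranged between -0.13 (without triple mutant replicate 1) and 0.21 for bZIP53, which was at -0.05 and -0.10 without wild-type replicates 1 and 3. It ranged between -0.13 (without triple mutant replicate 1) and 0.14 for AT2G15880, which was at -0.03 without wild-type replicate 2. It ranged between -0.037 (without triple mutant replicate 2) and 0.29 for PRODH1, which was at -0.02 without triple mutant replicate 1. It ranged between -0.14 (without triple mutant replicate 1) and 0.23 for SWEET12, between -0.065 (without triple mutant replicate 3) and 0.31 for SWEET13, and between -0.15 (without wild-type replicate 1) and 0.21 for NEET, which was at -0.03 without triple mutant replicate 1. It ranged between -0.15 (without triple mutant replicate 1) and 0.17 for RBCS1A, which was at -0.03 without wild-type replicate 1. It ranged between -0.36 (without wild-type replicate 2) and 0.73 for PR1, which was at -0.31 and -0.087 without triple mutant replicates 2 and 3 and at -0.077 without wild-type replicate 1. PR2 ranged between -0.35 (without wild-type replicate 2) and 0.10 (without wild-type replicate 3), with 0.10 also without triple mutant replicate 1, and RD29B between -1.7 (without triple mutant replicate 3) and 0.20 (without wild-type replicate 2). The cause was not tested for any of these.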

Other observations

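Of the 112 genes past the threshold that the naming rule chose, 29 overlap another annotated locus, 25 of them on opposite strands, and in 19 genes the overlapping locus held a level not far below theirs (at least 0.1 of it). Reads of such neighbours cannot be told apart where the counting did not use strand, which the sources used here do not give. Among all called loci 11 pairs had identical counts in every library, F3H and AT3G51238 being one of these pairs.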
